A study of Mus musculus with 8 samples.

Results

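Rapamycin alone was compared with vehicle in tumours of NPcis mice, malignant peripheral nerve sheath tumours that arise in the Schwann cell lineage. The comparison rests on 4 of the 8 arrays of the series, 2 from tumours given rapamycin and 2 from tumours given vehicle, and on all 19938 genes with a probe set of their own. The arrays were taken by their titles, and the brightest probe set stood for a gene that had several. All tumours were labelled as primary tumours of the NPcis genetic model, in which the mice carry mutant Nf1 and Trp53 on the same chromosome. Treatment lasted 14 hours in every group. The rapamycin group received 5 mg/kg by intraperitoneal injection. The other 2 groups, used here for comparison, received PD-0325901, a MEK inhibitor, at 1.5 mg/kg per dose by mouth, or both drugs (the combination). Strain, age and sex of the mice are not given in the labels, nor is whether the arrays of a group came from separate animals, so p-values measure only the spread between these samples. The series as a whole is titled as a search for signalling nodes and biomarkers in NF1-mutant cancers.

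Nf1 encodes neurofibromin, a GTPase activator that switches Ras off. Tumour cells that lose it keep both the MEK-ERK and the PI3K-mTOR branch of Ras signalling active. mTORC1 is a kinase complex that promotes ribosome production, translation and the synthesis of nucleotides, lipids and amino acids, and that holds back autophagy and lysosome production. Rapamycin binds the protein FKBP12, encoded by Fkbp1a, and the pair blocks part of the activity of mTORC1.

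On the array level the 2 rapamycin arrays were the least alike of any group. Their correlation across probe sets was 0.961, against 0.971 for the vehicle arrays, and 1398 genes lay at least 1 log2 apart between them, against 778 for vehicle. Either rapamycin array correlated better with a vehicle array than with the other: array 1 with vehicle array 2 (0.976) and array 2 with vehicle array 1 (0.980). Schwann cell and neural crest markers, for which 19 of 21 genes are measured, had a median difference of -0.08, and the array medians ran only from -0.03 to 0.00. Sox10, the transcription factor that defines the lineage, was at 8.17 and 7.87 with vehicle and at 7.94 and 7.94 with rapamycin. The files used here carry no detection call, so such a level does not show that the gene was expressed. Nes, an intermediate filament of progenitor cells, was at 11.19 and 9.17 with vehicle and at 8.42 and 11.74 with rapamycin. Pdgfra, a growth factor receptor of mesenchymal cells, was at 9.23 and 12.69 with vehicle and at 12.84 and 11.09 with rapamycin.

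Sex-linked genes separated the groups too, as seen after their values were known. Xist, the RNA of the inactive X chromosome in females, was at 5.92 and 5.95 with vehicle and at 11.58 and 10.70 with rapamycin. The Y-linked Eif2s3y was at 8.23 and 8.35 with vehicle and at 5.06 and 5.15 with rapamycin. Kdm5d and Uty, also Y-linked, had differences of -1.81 and -2.77. Both vehicle arrays thus carried the pattern of males and both rapamycin arrays that of females, so sex and rapamycin cannot be told apart in this comparison. The PD-0325901 and combination groups each held 1 array nearer to either pattern. Xist was at 5.91 and 11.54 with PD-0325901 and at 7.09 and 11.47 with the combination. Eif2s3y was at 9.07 and 5.09 and then at 9.81 and 5.60, so the patterns were less clean in the combination. The combination minus PD-0325901 shares no array with rapamycin minus vehicle and has 1 array nearer to either pattern on each side. It is given beside the results as a second reading of rapamycin with the MEK inhibitor present.

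Markers of neighbouring tissue differed between single arrays. All 10 adipocyte markers measured were higher with rapamycin, with a median difference of 1.43, but the array medians were -0.62 and -0.79 with vehicle and 2.09 and -0.59 with rapamycin. Adipoq, the fat hormone adiponectin, was at 6.30 and 6.26 with vehicle and at 10.26 and 6.40 with rapamycin, so that array 1 alone was high. Without rapamycin array 1 the median of the list was -0.04, and without rapamycin array 2 it was 2.87. Skeletal muscle markers, all 16 higher with a median of 0.53, showed the opposite array. Their medians were 0.09 and -0.73 with vehicle and -0.78 and 1.54 with rapamycin, and Myh4, a fast muscle myosin, was at 7.26, 6.91, 7.04 and 9.95. The median of the muscle list was 1.85 without rapamycin array 1 and -0.48 without rapamycin array 2. In these bulk samples more cells of a type and more RNA per cell cannot be told apart. The part of fat, muscle or sex in any difference below was not tested.

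**Figure D1:**
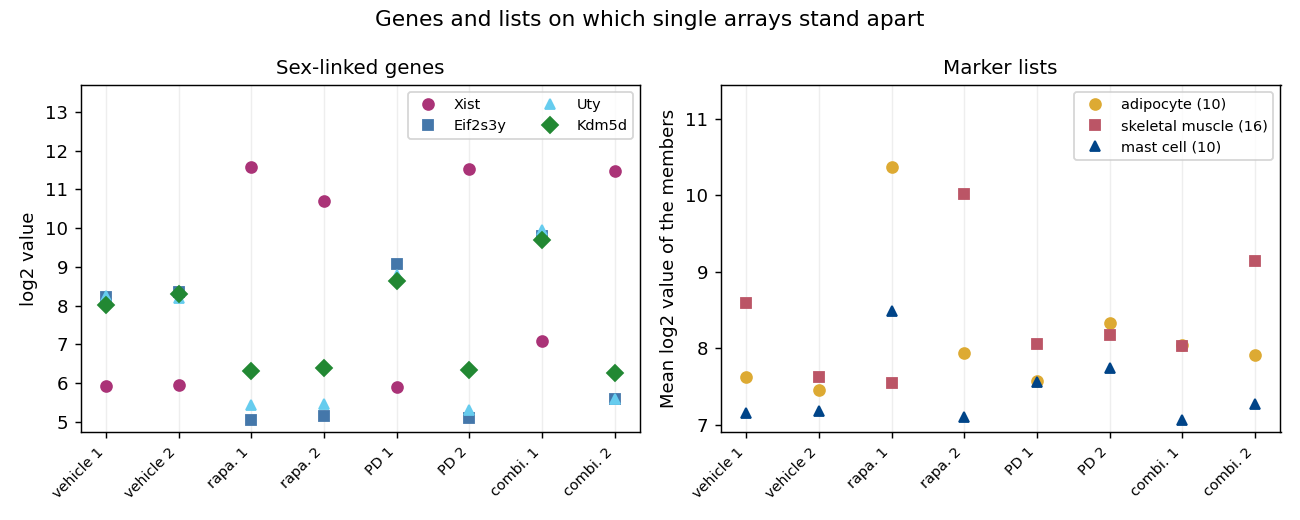
The left panel plots log2 values of 4 sex-linked genes, and the right panel the mean log2 value of 3 marker lists (number of genes in brackets), for each of the 8 arrays. Xist is above 10 on both rapamycin arrays and below 6 on both vehicle arrays, adipocyte and mast cell markers peak on rapamycin array 1, and muscle markers peak on rapamycin array 2.

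To ask which transcripts differ with rapamycin alone, the groups were compared in a limma fit of 4 group means over all 8 arrays. None of the 19938 genes (0%) passed an adjusted p of 0.05, and the smallest adjusted p was 0.9638. At unadjusted p under 0.05 there were 982 genes, against 997 that this threshold gives with no difference at all. Of the 982, 553 were higher with rapamycin (2.77% of all genes) and 429 lower (2.15%). Both rapamycin arrays lay above both vehicle arrays for 2493 genes (12.5%) and below both for 3572 genes (17.9%). The median size of a difference was 0.13 log2 and the median standard error (SE) 0.16. A difference of at least 1 log2, a doubling or more, was seen for 239 genes, of which 133 were higher and 106 lower, and 157 of the 239 had arrays that did not overlap. Single arrays moved these counts. Without rapamycin array 1, 4 genes passed and 1591 had an unadjusted p under 0.05, and without rapamycin array 2 the numbers were 15 and 2268. Most of the 15 were higher, and adipocyte genes such as Adipoq and Cidec were among them. Without vehicle array 2, 6 genes passed, all lower and all from the chromosomal stretch described further on, and without vehicle array 1 there were 0. A group left with 1 array is assumed to vary like the others in these fits. An exact permutation test of 2 arrays against 2 cannot go below p = 0.333. All genes below are therefore given as values, with the difference of rapamycin minus vehicle and its SE, and no gene has a limma adjusted p under 0.9638. In this fit a difference reaches an unadjusted p under 0.05 where it is at least 2.45 times its SE.

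Of the 553 higher genes, 380 were also higher in the combination against PD-0325901, with a median difference of 0.12 there against 0.51 in the rapamycin comparison. Of the 429 lower genes, 294 were also lower, with a median of -0.10 against -0.50. In that second pair of groups both arrays lay above for 3258 genes (16.3%) and below for 3620 (18.2%), and 0 genes passed the adjusted threshold in limma, with 599 at unadjusted p under 0.05. Across all genes the 2 sets of differences had a correlation of 0.179, and 57.7% had the same sign. Genes are not independent replicates, so this is a description. Arrays lay above in both settings for 613 genes (3.07%) and below in both for 834 (4.18%).

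Ribosome production, a main output of mTORC1, had the most members lower at unadjusted p under 0.05 of the 53 lists. This ranking is by count, and the lists differ in size. By share the MHC class II list stood higher, with 4 of its 9 genes. The lists were chosen with earlier results of these data known. Of 35 ribosome biogenesis genes measured, which process ribosomal RNA and drive RNA polymerase I, 34 were lower with rapamycin and 18 had both rapamycin arrays below both vehicle arrays (51.4%, against 17.9% of all genes). The median difference was -0.43, against -0.02 over all genes. At unadjusted p under 0.05, 9 of the 35 were lower (against 2.15% of all genes) and 0 higher (against 2.77%). The array medians were 0.29 and 0.18 with vehicle and -0.57 and 0.11 with rapamycin, so array 1 was far lower than array 2. Without rapamycin array 1 the median was -0.10, and without array 2 it was -0.78.

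Gnl3 (nucleostemin), a nucleolar GTP-binding protein of proliferating cells, was at 10.24 on both vehicle arrays and at 9.08 and 9.71 on the rapamycin arrays. Its difference was -0.84 (SE 0.21). Wdr43, a component of the small subunit processome, was at 10.74 and 10.87 with vehicle and at 9.46 and 10.29 with rapamycin (-0.93, SE 0.26). In both genes the 2 groups do not overlap, and array 1 is the lower of the rapamycin arrays. Nolc1, a nucleolar chaperone, was at 10.70 and 10.55 and then at 9.78 and 10.17 (-0.65, SE 0.18). Taf1d, a subunit of the polymerase I factor SL1, was at 12.87 and 12.43 and then at 11.67 and 12 (-0.81, SE 0.18). Taf1d also lies in the chromosomal stretch described further on, in which vehicle array 1 stood high. Named after their values were seen, nucleolin (Ncl) had a difference of -0.33 (SE 0.11), nucleophosmin (Npm1) -0.59 (SE 0.22), and Nop58, a core protein of small nucleolar RNPs, -0.85 (SE 0.29). Utp11, another processome component outside the list, was at 9.30 and 9.09 with vehicle and at 8.48 and 8.55 with rapamycin (-0.68, SE 0.12). The 1 list gene on the other side was Ubtf, the polymerase I factor UBF, at 0.14 (SE 0.14).

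In the combination against PD-0325901 the same 35 genes had a median of -0.37, 33 were lower, and 23 had both arrays below (18.2% of all genes). Arrays lay below in both settings for 15 of the 35 genes (42.9%, against 4.18% of all genes). These included Gnl3, Nolc1, Wdr43 and Taf1d, whose differences in the second setting were -0.39, -0.44, -0.33 and -0.62. The difference between the 2 settings was tested as an interaction. At unadjusted limma p under 0.05 there were 0 of the 35 genes, against 434 of all 19938. A list of this size can give 0 at that rate, so the count does not show that the settings are alike.

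**Figure D2:**
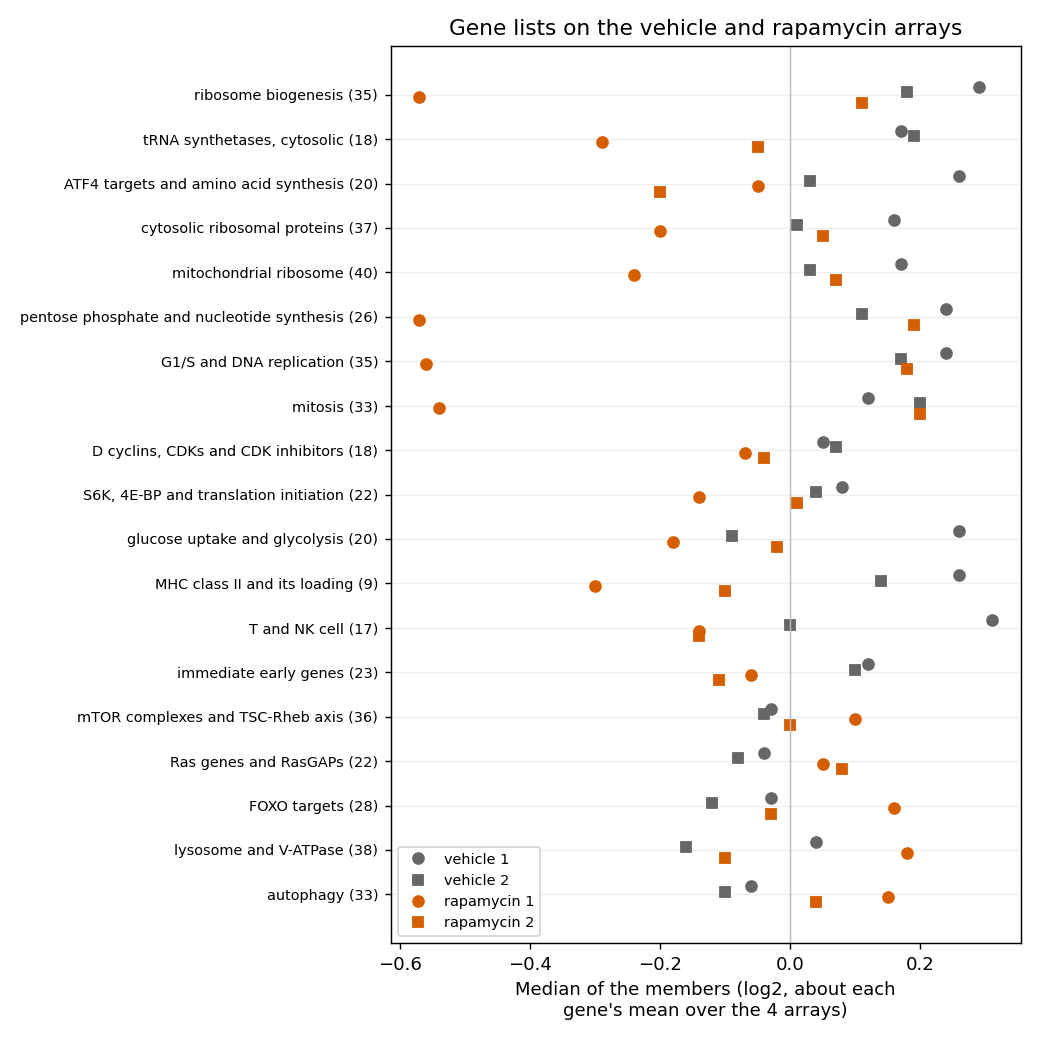
Each row is a gene list (number of genes in brackets), and each point the median over its members of the log2 value on 1 array, with every gene centred on its mean over the 4 arrays. For ribosome biogenesis the rapamycin arrays sit at -0.57 and 0.11 and the vehicle arrays at 0.29 and 0.18, while for G1/S and DNA replication rapamycin array 2 (0.18) sits between the vehicle arrays (0.24 and 0.17).

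Other genes of the translation machinery were lower by less. Of 18 cytosolic tRNA synthetases, which load amino acids onto tRNAs, 15 were lower with a median of -0.24, and 10 had arrays below (55.6%, against 17.9% of all genes). The valine enzyme Vars was at 11.04 and 10.93 with vehicle and at 10.10 and 10.57 with rapamycin (-0.65, SE 0.17). The tyrosine enzyme Yars was at 10.54 and 10.42 and then at 10 and 9.83 (-0.56, SE 0.19). Their rapamycin arrays are both below the vehicle arrays, and the list kept a negative median without each of the 4 arrays in turn (-0.46 to -0.23). Of 37 cytosolic ribosomal protein genes, whose mRNAs mTORC1 is known to control mainly at translation, 35 were lower with a median of only -0.14, and 10 had arrays below (27.0%, against the same 17.9%). Rps20 was at 12.62 and 12.72 with vehicle and at 12.41 on both rapamycin arrays (-0.26, SE 0.10). Of 40 mitochondrial ribosomal proteins 34 were lower (median -0.19) and 14 had arrays below (35.0%), but without rapamycin array 1 the median was 0.01.

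mTORC1 acts on translation initiation through 4E-BP and S6K. The list of these genes, which also holds elongation factors, had a median of -0.07 over 22 genes, 15 of them lower. Arrays lay below for 5 (22.7%, against 17.9% of all genes) and above for 2 (9.1%, under the 12.5%). The helicase Eif4a2 was at 10.42 and 10.47 with vehicle and at 9.98 and 9.58 with rapamycin (-0.67, SE 0.15). With the MEK inhibitor present, its difference was 0.04, and its interaction reached an unadjusted limma p under 0.05. The cap-binding protein Eif4e had a difference of -0.46 (SE 0.19), and Eif4ebp1, the repressor that mTORC1 phosphorylates, -0.21 (SE 0.11). Both had arrays that do not overlap.

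ATF4, a transcription factor of the amino acid response whose translation mTORC1 promotes, has targets in serine, glycine and asparagine synthesis. The list measured here also holds Atf4 itself and targets outside these pathways, such as Trib3 and Chac1. Of its 20 genes 15 were lower with rapamycin, with a median of -0.21. Both arrays lay below for 9 (45%, against 17.9% of all genes) and above for 0. Asns, which makes asparagine, was at 11.23 and 11.19 with vehicle and at 10.64 and 9.72 with rapamycin (-1.03, SE 0.40). Psat1, of serine synthesis, was at 10.59 and 9.96 and then at 9.28 and 9.37 (-0.95, SE 0.37). Phgdh, the first enzyme of the same pathway, was at 10.65 and 10.23 and then at 9.79 and 10.04 (-0.52, SE 0.19). For these 3 enzymes the groups do not overlap, in the combination against PD-0325901 either (-0.73, -0.59 and -0.37). Aldh18a1, of proline synthesis, had a difference of -0.69 (SE 0.26) alone and 0.03 with the MEK inhibitor. Atf4 itself was at 9.83 and 9.64 and then at 9.42 and 9.58 (-0.24, SE 0.17). The stress targets Trib3, a pseudokinase, and Chac1, which degrades glutathione, were at -0.07 (SE 0.16) and -0.14 (SE 0.27). Over the list the arrays were at 0.26 and 0.03 with vehicle and at -0.05 and -0.20 with rapamycin, and the median with the MEK inhibitor was -0.19, with 17 of 20 lower.

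Promoter sequence was set beside these lists because factors tied to mTORC1 are known to bind short motifs there. Promoters are those of RefSeq on GRCm38.p6, from 250 bases before to 50 after a gene's start, searched on both strands. CACGTG, the E-box read by MYC and by TFEB, was found for 8.1% of all 27025 genes with a promoter. It was found for 7 of 29 ribosome biogenesis genes (24.1%), 5 of 27 autophagy genes (18.5%) and 14 of 32 lysosome and V-ATPase genes (43.8%). TGATGNAA, a core of the CCAAT enhancer binding protein and ATF response element, was found for 7 of 19 ATF4 genes (36.8%), against 4.5% of all genes. Stretches of the promoters of 4 genes are shown, with the motif in capitals. Rrn3 and Asns were taken from list members with the motif before the start whose rapamycin and vehicle arrays do not overlap. Lamp1 and Mcoln1 were taken from lysosome genes with at least 2 copies before the start. Fgf21, Ctsd and Gla met the same rules and are not shown. Rrn3, a polymerase I initiation factor, lies at chr16:13780454-13780519 (plus strand), and Asns at chr6:7693210-7693262 (minus strand). The lysosomal membrane genes Lamp1, at chr8:13159080-13159160 (plus strand), and Mcoln1, at chr8:3500428-3500499 (plus strand), hold 4 and 2 copies. Rrn3 holds 2 in its promoter, of which the stretch shows 1.
Rrn3: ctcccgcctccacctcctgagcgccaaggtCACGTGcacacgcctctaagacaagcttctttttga
Asns: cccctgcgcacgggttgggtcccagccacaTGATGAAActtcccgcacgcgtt
Lamp1: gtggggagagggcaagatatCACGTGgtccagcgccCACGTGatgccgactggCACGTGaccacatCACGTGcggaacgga
Mcoln1: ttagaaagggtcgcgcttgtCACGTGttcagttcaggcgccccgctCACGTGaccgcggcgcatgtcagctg

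The genes with these promoters differed in direction and size. Rrn3, chosen in part because its arrays do not overlap, was at 10.68 and 10.28 with vehicle and at 9.99 and 10.05 with rapamycin (-0.45, SE 0.30). Lamp1, with 4 copies of the E-box, was at 12 and 12.12 and then at 12.24 and 11.87 (-0.01, SE 0.14). Mcoln1, a calcium channel of lysosomes, was at 10.81 and 11.02 and then at 11.25 and 10.87 (0.15, SE 0.18). For Lamp1 and Mcoln1 the groups overlap. A motif match is a description of the letters and not of binding.

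Autophagy genes were higher with rapamycin. Of 33 genes measured 27 were higher, with a median of 0.29, and 15 had both rapamycin arrays above both vehicle arrays (45.5%, against 12.5% of all genes), with 1 below. At unadjusted p under 0.05, 6 of the 33 were higher (against 2.77% of all genes) and 0 lower (against 2.15%). The array medians were -0.06 and -0.10 with vehicle and 0.15 and 0.04 with rapamycin. The list median was positive without any 1 of the 4 arrays, though lower, from 0.16 without rapamycin array 1 to 0.26 without vehicle array 1. The kinase Ulk2, which starts autophagosome formation, was at 9.80 and 10 with vehicle and at 10.37 and 10.70 with rapamycin (0.64, SE 0.15). Its homologue Ulk1, a direct substrate of mTORC1, was at 9.51 and 10.15 and then at 10.45 and 10.36 (0.58, SE 0.22). Both kinases were above vehicle on both arrays. The cargo receptor Nbr1 was at 10.35 and 10.25 and then at 10.77 and 10.60 (0.39, SE 0.11). Atg4d, a protease of the LC3 family, was at 8.42 and 8.25 and then at 8.73 and 8.64 (0.35, SE 0.11). Named after their values were seen, Atg13, the partner of the Ulk kinases, had a difference of 0.69 (SE 0.27) and the LC3 gene Map1lc3a 0.44 (SE 0.17).

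In the second setting the autophagy list had a median of 0.13, with 23 of 33 genes higher and 13 with arrays above (16.3% of all genes). Arrays lay above in both settings for 8 of the 33 genes (24.2%, against 3.07% of all genes) and below in both for 0. Ulk1 (0.23), Nbr1 (0.20) and Atg4d (0.11) were among them, while Ulk2 had a difference of -0.01 there. The interaction of Ulk2 was 1 of 2 among the 33 genes at an unadjusted limma p under 0.05, against 434 of all 19938. Lysosome and V-ATPase genes, which share regulators with autophagy, had a median of 0.11 over 38 genes, 25 of them higher. Their arrays overlapped, at 0.04 and -0.16 with vehicle and at 0.18 and -0.10 with rapamycin. At unadjusted p under 0.05, 0 of the 38 were higher (against 2.77% of all genes) and 2 lower (against 2.15%). With the MEK inhibitor their median was -0.07. Gusb, the lysosomal beta-glucuronidase, was at 10.28 and 10.35 with vehicle and at 9.94 and 9.88 with rapamycin (-0.40, SE 0.14), and its difference in the second setting was -0.38.

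**Figure D3:**
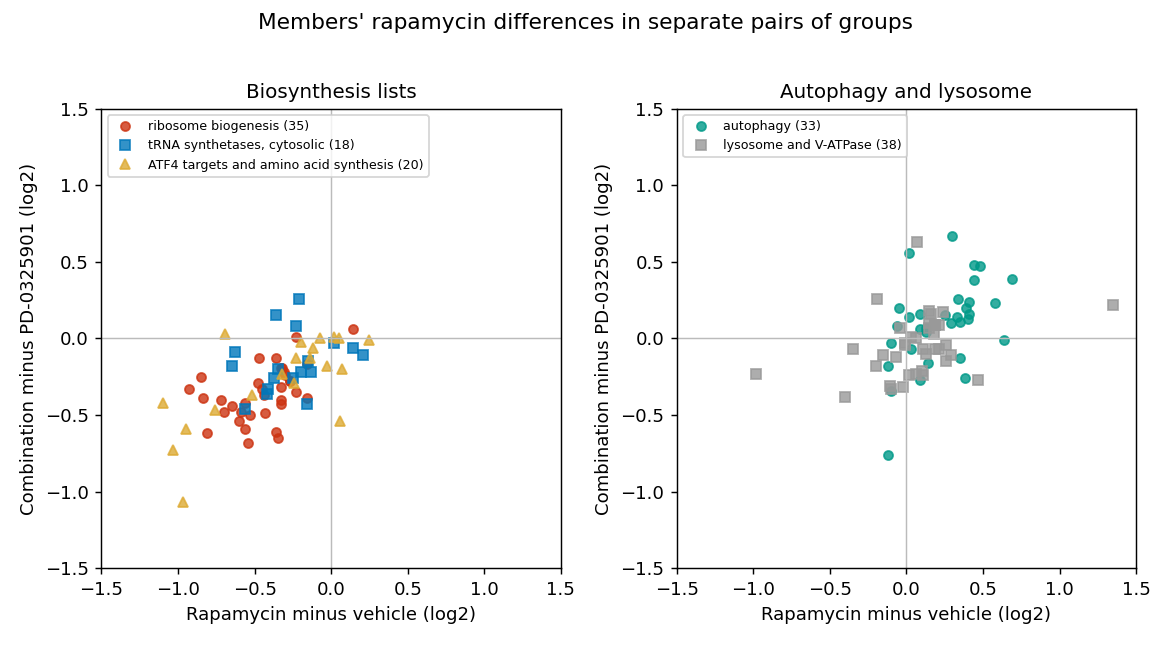
Each point is a gene, with its rapamycin minus vehicle difference on the horizontal axis and its combination minus PD-0325901 difference on the vertical axis, both in log2, for the lists named (number of genes in brackets). Ribosome biogenesis genes lie mostly in the lower left, with 34 of 35 below 0 on the horizontal and 33 below 0 on the vertical axis, and autophagy genes lie mostly in the upper right, with 27 and 23 of 33 above 0.

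The complexes that rapamycin acts on differed little. Over 36 genes of the mTOR complexes and the TSC-Rheb axis the median was 0.07, with 23 higher and 10 with arrays above (27.8%, against 12.5% of all genes). Mtor was at 9.65 and 9.81 with vehicle and at 9.90 and 9.81 with rapamycin (0.13, SE 0.15), and Rptor, the mTORC1 scaffold, at 9.94 and 9.76 and then at 9.50 and 10 (-0.10, SE 0.18). Fkbp1a, the protein that rapamycin binds, had a difference of 0.06 (SE 0.22). The GTPase Rheb, which activates mTORC1, was at 10.51 and 10.46 and then at 10.72 and 10.77 (0.26, SE 0.09). Its inhibitors Tsc1 and Tsc2 were at 0.20 (SE 0.15) and -0.14 (SE 0.13). Among the amino acid sensing arm, Rraga, a Rag GTPase that recruits mTORC1 to the lysosome, was at 9.53 and 9.58 and then at 9.13 and 9.26 (-0.36, SE 0.11). Depdc5, a subunit of the GATOR1 complex that turns Rag signalling off, had a difference of 0.32 (SE 0.12). The lysosomal arginine sensor Slc38a9 was at 9.59 and 9.71 and then at 10.03 and 10.05 (0.39, SE 0.13), and at 0.32 with the MEK inhibitor.

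Blocking S6K is known to release insulin and growth factor receptors from feedback. Over 28 receptors and adaptors under that feedback the median was -0.03, with 13 higher. Irs1, the adaptor that S6K marks for removal, was at 10.05 and 9.64 with vehicle and at 10.91 and 10.54 with rapamycin (0.88, SE 0.44). Its homologue Irs2 went the other way, at 9.68 and 9.97 and then at 9.33 and 9.26 (-0.54, SE 0.18). Both have arrays that do not overlap, and with the MEK inhibitor Irs1 was at 1.30 and Irs2 at 0.38, the interaction of Irs2 reaching an unadjusted limma p under 0.05. Igfbp5, which binds insulin-like growth factors, was at 11.25 and 11.72 and then at 9.91 and 10.74 (-1.16, SE 0.39). Igf2 was at 11.55, 11.90, 11.01 and 8.47, with the last of the rapamycin arrays far below the rest. In the PI3K-AKT list, with a median of -0.05 over 22 genes, the lipid phosphatase Inpp4b was at 9.07 and 9.68 and then at 8.54 and 8.09 (-1.06, SE 0.27). Pik3ip1, an inhibitor of PI3K, had a difference of 0.79 (SE 0.31), set mainly by rapamycin array 1.

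FOXO factors, which AKT keeps out of the nucleus, had 22 of 28 targets higher, with a median of 0.13, and 4 had arrays above (14.3%, near the 12.5% of all genes). Without rapamycin array 1 the median was 0.03. Ccng2, an atypical cyclin of quiescent cells, was at 8.41 and 8.84 with vehicle and at 9.33 and 9.34 with rapamycin (0.71, SE 0.18). Catalase (Cat) was at 10.84 and 10.43 and then at 11.65 and 10.93 (0.66, SE 0.26). These 2 were above on both arrays in the combination against PD-0325901 as well. Among 22 Ras genes and RasGAPs the median was 0.15 and 17 were higher. Nf1 was at 10.26 and 10.49 with vehicle and at 9.98 and 10.46 with rapamycin (-0.15, SE 0.21), and its probe set may lie outside the mutated part. The small GTPase Rras was at 11.63 and 11.60 and then at 12.09 and 12 (0.43, SE 0.11).

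Glucose uptake and glycolysis genes were lower in 16 of 20 cases, with a median of -0.19, and 4 had arrays below (20%, near the 17.9% of all genes). The arrays overlapped, since vehicle array 1 (0.26) stood above vehicle array 2 (-0.09) and the rapamycin arrays (-0.18 and -0.02). Without vehicle array 1 the median was -0.02. In the combination against PD-0325901 it was -0.33, with 1 of 20 higher and 12 with arrays below (18.2% of all genes). Slc2a1, the main glucose transporter of tumour cells, was at 12.49 and 11.81 with vehicle and at 11.47 and 11.82 with rapamycin (-0.50, SE 0.26). Slc2a3, a second transporter, was at 9.30 and 8.42 and then at 8.24 and 7.62 (-0.93, SE 0.33). The lactate exporter Slc16a3 was at 10.20 and 10.45 and then at 9.55 and 10.01 (-0.55, SE 0.21). Only for Slc2a1 of these 3 did the groups overlap. Txnip, the arrestin that removes glucose transporters from the membrane, was at 11.34 and 11.54 with vehicle and at 12.43 and 11.48 with rapamycin (0.52, SE 0.30). Array 1 alone made its difference, since array 2 lies between the vehicle arrays. Mlxipl, the glucose sensor ChREBP, was at 7.60 and 7.62 and then at 8.17 and 7.90 (0.42, SE 0.12).

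Nucleotide synthesis, which mTORC1 promotes through ATF4 and S6K, was lower in 23 of 26 genes with a median of -0.39, but array 1 set the value. The arrays were at 0.24 and 0.11 with vehicle and at -0.57 and 0.19 with rapamycin, and without array 1 the median was 0.09. Ctps, which makes CTP, was at 9.85 and 10.11 and then at 8.57 and 9.44 (-0.98, SE 0.28). Dhodh, of pyrimidine synthesis, was at 8.39 and 8.37 and then at 7.81 and 8.03 (-0.45, SE 0.15). Sterol synthesis genes had a median of 0.14 over 20 genes with 0 at unadjusted p under 0.05, and fatty acid synthesis genes 0.01 over 19. In the latter list the elongase Elovl5 was at 10.59 and 10.70 and then at 11.58 and 11.07 (0.68, SE 0.18). Lpin1, a lipid phosphatase that mTORC1 keeps out of the nucleus, was at 8.18 and 8.60 and then at 9.38 and 9.07 (0.84, SE 0.25). Oxidative phosphorylation genes had a median of -0.06 over 48 genes. Ppargc1a, the coactivator of mitochondrial genes, was at 6.87 and 6.71 with vehicle and at 7.82 and 8.55 with rapamycin (1.39, SE 0.25), and at 0.59 with the MEK inhibitor. Both rapamycin arrays were above vehicle by more than the spread within either group.

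Among other genes of fatty acid and one-carbon metabolism, Crot, a peroxisomal carnitine transferase, was at 9.68 and 9.59 with vehicle and at 10.29 on both rapamycin arrays (0.66, SE 0.09). Acad12, an acyl-CoA dehydrogenase, was at 7.02 and 6.91 and then at 7.50 and 7.70 (0.63, SE 0.11). Between the combination and PD-0325901 arrays both genes again had arrays above, at 0.23 and 0.46. Aldh1l1, a folate enzyme, was at 7.25 and 7.02 and then at 8.41 and 8.32 (1.23, SE 0.17), and at 0.33 in the second setting. The interactions of Crot and Aldh1l1 reached an unadjusted limma p under 0.05, and that of Acad12 did not.

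Replication and mitosis genes were lower on rapamycin array 1 alone, taken by their list medians. All 35 G1/S and DNA replication genes were lower, with a median of -0.39, and 12 had arrays below (34.3%, against 17.9% of all genes). The arrays were at 0.24 and 0.17 with vehicle and at -0.56 and 0.18 with rapamycin, and without array 1 the median was 0.01. Mitosis genes were lower in 30 of 33 cases (median -0.26), with 0.08 without array 1. In the second setting these medians were -0.16 and -0.03. The list of D cyclins, CDKs and CDK inhibitors was lower on both rapamycin arrays, at 0.05 and 0.07 with vehicle and at -0.07 and -0.04 with rapamycin. Its median over 18 genes was -0.15, from -0.13 to -0.11 without each of the 4 arrays, and 6 genes had arrays below (33.3%). In the combination against PD-0325901 its median was 0.08. Cyclin D2 (Ccnd2) was at 11.72 and 11.50 with vehicle and at 10.83 and 10.04 with rapamycin (-1.18, SE 0.31). With the MEK inhibitor its difference was 0.04, and its interaction was among the 434 genes at unadjusted p under 0.05. Cyclin E1 (Ccne1) was at 9.55 and 9.32 and then at 8.28 and 8.85 (-0.88, SE 0.22), and at -0.67 with the MEK inhibitor. The CDK inhibitor Cdkn1c was at 9.76 and 10.44 and then at 8.28 and 8.26 (-1.83, SE 0.73). Rb1, the retinoblastoma protein, was at 9.55 and 9.08 and then at 9.76 and 10.04 (0.58, SE 0.21). Cyclin D1 (Ccnd1) had a difference of -0.22 (SE 0.31) with overlapping arrays.

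**Figure D4:**
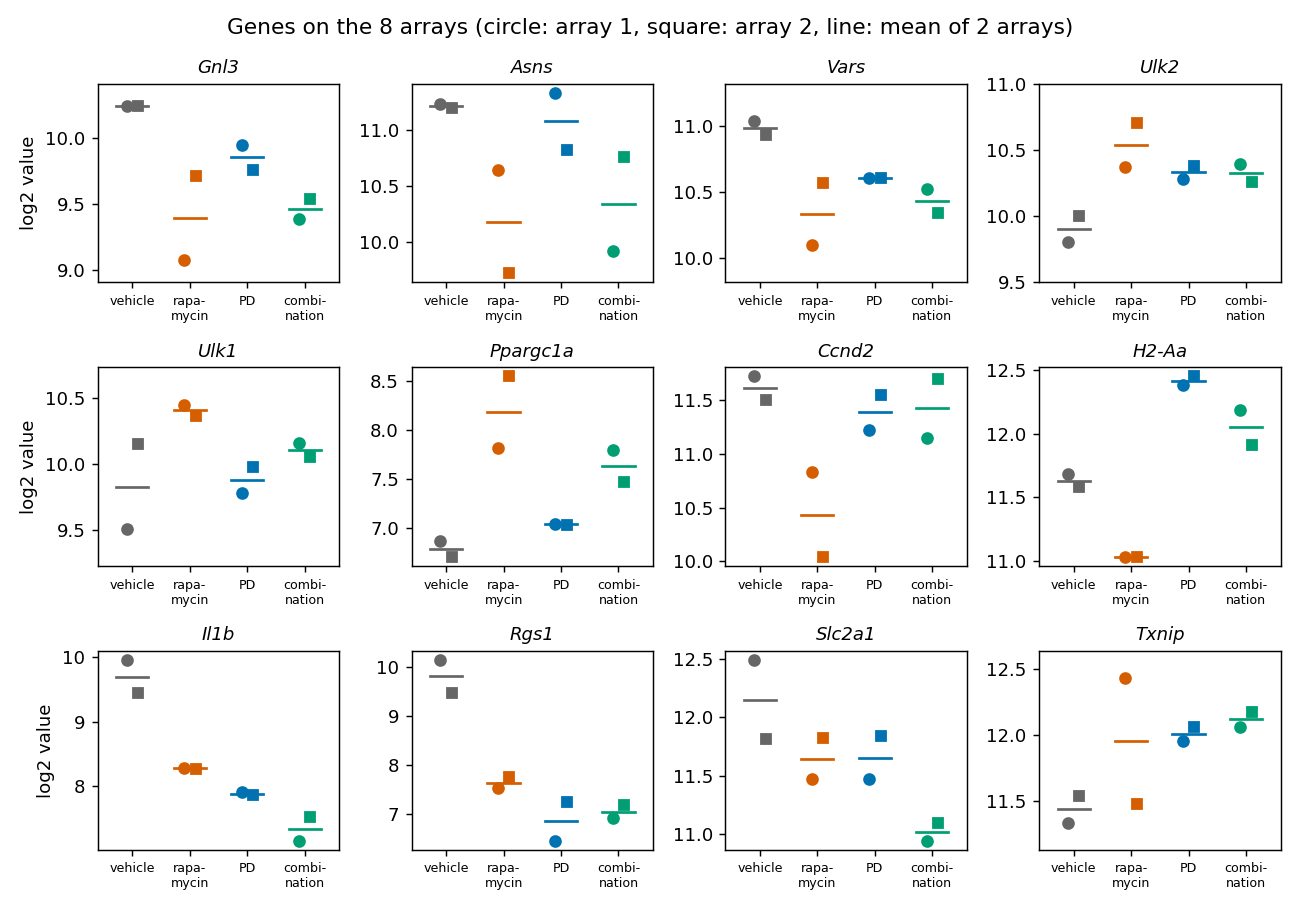
Log2 values of 12 genes on all 8 arrays, by group, with a line at the mean of the 2 arrays; the vertical scale differs between panels. Gnl3, Asns, Vars, Ccnd2, H2-Aa, Il1b and Rgs1 have both rapamycin arrays below both vehicle arrays, Ulk2, Ulk1 and Ppargc1a have both above, and for Slc2a1 and Txnip the groups overlap.

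ERK output genes had a median of -0.12 over 28 genes, and of 0.02 without rapamycin array 1. Arrays lay above for 2 of them (7.1%, under the 12.5% of all genes) and below for 4 (14.3%, under the 17.9%). Ets2, a transcription factor downstream of Ras, was at 10.82 and 10.63 with vehicle and at 11.33 and 11.55 with rapamycin (0.72, SE 0.15). The ligand epiregulin (Ereg) was at 8.49 and 8.70 and then at 8.07 and 7.35 (-0.89, SE 0.34). With the MEK inhibitor Ets2 was at 0.01 and Ereg at 0.49, and both interactions reached an unadjusted limma p under 0.05. Dusp6, the ERK phosphatase, had a difference of 0.03 (SE 0.41). Immediate early genes had a median of -0.22, with 15 of 23 lower and 3 with arrays below (13.0%, under the 17.9% of all genes). The orphan receptor Nr4a1 was at 9.60 and 11.01 and then at 8.86 and 8.92 (-1.42, SE 0.43).

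Genes of immune cells were lower in part. All 9 MHC class II genes measured, which present peptides to helper T cells, were lower, with a median of -0.27, and 6 had both arrays below (66.7%, against 17.9% of all genes). H2-Aa was at 11.68 and 11.58 with vehicle and at 11.03 on both rapamycin arrays (-0.60, SE 0.12). H2-Eb1 was at 10.77 and 10.75 and then at 10.12 and 10.30 (-0.55, SE 0.13), and H2-Ab1 had a difference of -0.55 (SE 0.18). Cathepsin S (Ctss), which trims the invariant chain, was at 11.53 and 11.46 and then at 11.06 and 11.22 (-0.35, SE 0.10). The list kept a negative median without each of the 4 arrays (-0.48 to -0.27). In the combination against PD-0325901 it was -0.11, and 5 of the 9 genes had arrays below in both settings (55.6%, against 4.18% of all genes). Macrophage markers as a whole had a median of -0.08 over 15 genes, with arrays at 0.16 and -0.08 with vehicle and at -0.15 and 0.06 with rapamycin. Of these 15 genes, 2 had arrays above (13.3%, near the 12.5% of all genes) and 2 below (13.3%, under the 17.9%). Csf1r, the receptor on which macrophages depend, had a difference of 0.00 (SE 0.19). The 2 ends of the list were Ms4a7, a tetraspanning protein of macrophages, at -0.78 (SE 0.16), and Cd163 at 0.73 (SE 0.49). The groups do not overlap in either of these 2 genes.

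The cytokine interleukin 1 beta (Il1b) was at 9.95 and 9.44 with vehicle and at 8.29 and 8.27 with rapamycin (-1.41, SE 0.20). Rgs1, a regulator of G protein signalling in leukocytes, was at 10.14 and 9.48 and then at 7.53 and 7.75 (-2.17, SE 0.33). Both genes were lower on both rapamycin arrays by more than the spread within either group. With the MEK inhibitor Il1b was at -0.55 and Rgs1 at 0.19, and both interactions reached an unadjusted limma p under 0.05. Oncostatin M (Osm) was at 7.93 and 7.59 and then at 7.09 and 7.39 (-0.52, SE 0.16), and the neutrophil chemokine Cxcl1 had a difference of -0.64 (SE 0.24). Over 31 cytokines and chemokines the median was -0.08, with 12 higher, 0 with arrays above and 6 with arrays below (19.4%, against 17.9% of all genes). The differences ran from -1.71, for the prostaglandin synthase Ptgs2, to 0.44. Without vehicle array 1 the median was 0.18. The interferon-induced chemokine Cxcl10 was at 10.61 and 10.43 and then at 9.22 and 8.66 (-1.58, SE 0.50).

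The interferon list itself depended on vehicle array 1. Its median was -0.27 over 29 genes, with 23 lower, but 0.04 without vehicle array 1, and 0.16 with the MEK inhibitor. T and NK cell markers were lower in all 17 cases with a median of -0.29, and 10 had arrays below (58.8%, against 17.9% of all genes), yet 0 reached an unadjusted p under 0.05. Their arrays were at 0.31 and 0.00 with vehicle and at -0.14 and -0.14 with rapamycin, and in the combination against PD-0325901 the median was 0.25 with 15 of 17 higher. Nkg7, of cytotoxic granules, was at 9.03 and 8.63 and then at 7.55 and 8.07 (-1.02, SE 0.60). Endothelial markers were higher in all 13 cases, with a median of 0.34, but 2 had arrays above (15.4%, near the 12.5% of all genes) and without rapamycin array 1 the median was 0.06. The VEGF receptor Kdr was at 9.01 and 8.51 and then at 9.43 and 9.23 (0.56, SE 0.19). Mast cell markers (median 0.47, 0.01 without rapamycin array 1) and fibroblast markers (0.28, 0.07 without it) followed rapamycin array 1, as did the adipocyte list.

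The genes with the smallest unadjusted p in limma outside the lists were of mixed function. Cpne4, a calcium-dependent membrane-binding protein, was at 6.75 and 6.94 with vehicle and at 7.93 and 8.21 with rapamycin (1.23, SE 0.14, adjusted p in limma = 0.9638). Smim14, a small membrane protein, was at 10.80 and 11.09 and then at 12.06 and 11.86 (1.01, SE 0.14). Tbx18, a transcription factor of mesenchymal development, was at 8.57 and 8.63 and then at 9.46 and 9.39 (0.83, SE 0.12). In each the groups lie further apart than their arrays. With the MEK inhibitor present, these 3 were at 0.22, 0.11 and 0.00, and the interaction of each reached an unadjusted limma p under 0.05. On the lower side Esm1, a proteoglycan secreted by endothelial cells, is given for the size of its difference, since other lower genes had a smaller p. It was at 9.39 and 9.96 and then at 7.07 and 7.70 (-2.29, SE 0.45), and at -0.24 in the second setting. The interaction of Esm1 reached an unadjusted limma p under 0.05. Haus6, a subunit of the augmin complex of the mitotic spindle, was at 9.23 and 9.24 and then at 8.49 and 8.63 (-0.68, SE 0.11), and at -0.58 in the second setting.

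Among genes at unadjusted p under 0.05 whose arrays do not overlap, predicted genes left out, the largest higher difference was that of Xist (5.20), described above. Car3, a carbonic anhydrase abundant in fat and muscle, was at 7.69 and 7.10 with vehicle and at 12.56 and 11.62 with rapamycin (4.70, SE 0.67). With the MEK inhibitor Car3 was at 0.98, and its interaction reached an unadjusted limma p under 0.05. It is itself 1 of the 10 adipocyte markers measured, so that list is no separate reading of it. It was high on both rapamycin arrays, while the adipocyte list median was high on array 1 (2.09) and not on array 2 (-0.59). The part of fat or muscle in its difference was not tested. The fatty acid transporter Cd36 was at 7.75 and 6.39 and then at 11.24 and 9.24 (3.17, SE 1.08), with the higher value on the array high in adipocyte markers. With the MEK inhibitor Cd36 was at -0.56, and its interaction also reached an unadjusted limma p under 0.05. Cadps, a protein of vesicle release, was at 6.60 and 7.28 and then at 8.46 and 8.81 (1.69, SE 0.37). It was the same in size in the combination against PD-0325901 (1.53) and above on both arrays there.

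A stretch of neighbouring genes stood out among the large lower differences. Of the 8 largest lower differences under the same limits, 6 (Olfr847, Olfr843, Zfp317, Casp12, Pdgfd and Dcun1d5) lie between Alkbh8 and Zfp317 in the gene order of GRCm38.p6, a stretch noticed after the values were seen. With no limit on p, 5 of the 8 lie there, and the Y-linked Eif2s3y (-3.18) and Uty (-2.77) are the second and the third largest. Olfr847, an odorant receptor gene, was at 10.39 and 6.54 with vehicle and at 4.61 and 4.86 with rapamycin (-3.73, SE 1.12). Zfp317, a zinc finger gene, was at 12.30 and 9.63 and then at 8.58 and 8.69 (-2.33, SE 0.78). Of the 92 genes measured in the stretch, vehicle array 1 was the highest of the 8 arrays in 62, against 16.9% of all genes, and in 38 it lay at least 1 log2 above the median of the others. Its median over the stretch was 0.66, and that of the other 7 arrays ran from -0.08 to 0.04. In the stretch 14 of the 92 genes were lower at unadjusted p under 0.05, against 429 of all 19938 genes (2.15%). Among the 38, vehicle array 2 was the second highest in 19, and for Olfr847 it lay 1.71 above the median of the others. Vehicle array 1 stood furthest apart here by its median, and the copy number of the stretch was not tested.

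**Figure D5:**
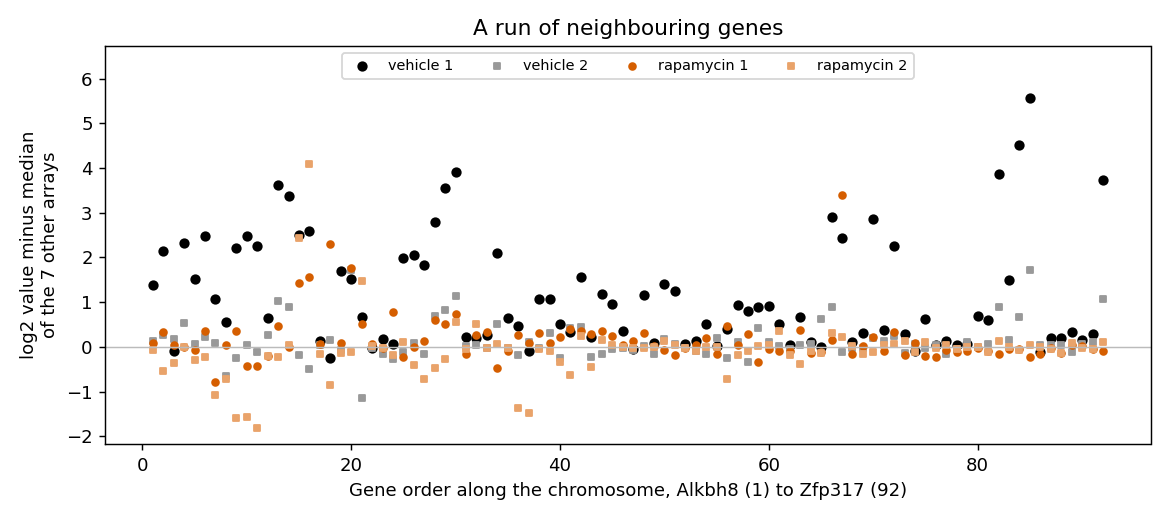
For 92 neighbouring genes in chromosomal order, the points give the log2 value on an array minus the median of the 7 other arrays, for the vehicle and rapamycin arrays. Vehicle array 1 (black) lies at least 1 log2 above the median of the others for 38 of the genes, while the medians of the other arrays over the stretch stay between -0.08 and 0.04.

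Amino acid transporters had a median of -0.32 over 20 genes. Both rapamycin arrays lay above vehicle for 5 of them (25%, against 12.5% of all genes) and below for 7 (35.0%, against 17.9%). The median was 0.13 without rapamycin array 2 and -0.12 without vehicle array 2. The arginine transporter Slc7a3 was at 8.86 and 9.07 with vehicle and at 7.92 and 7.86 with rapamycin (-1.07, SE 0.34). Heat shock genes, a list of cytosolic chaperones that also holds both mitochondrial chaperonin subunits, had a median of -0.19 over 16 genes, which was 0.09 without vehicle array 1 and 0.07 without rapamycin array 1. The chaperonin subunits Hspe1 and Hspd1 had differences of -0.55 (SE 0.10) and -0.64 (SE 0.16). Proteasome subunits had a median of -0.12. NRF2 and antioxidant genes were at 0.05, where Gstm1, a glutathione transferase, was at 10.34 and 9.87 and then at 10.94 and 10.88 (0.81, SE 0.18). ER chaperones (-0.01), p53 targets (-0.06), the Bcl2 family (-0.08), MHC class I (-0.09), collagen and matrix (-0.09), matrix proteases (0.05) and hypoxia genes outside glycolysis (-0.02) had medians within 0.1 of 0. Medians of the marker lists not yet given were -0.10 for dendritic cells, 0.03 for neutrophils, -0.03 for B and plasma cells, 0.12 for pericytes and smooth muscle, -0.03 for epidermis, -0.13 for neurons and -0.02 for erythroid cells. MondoA targets and glucose sensors, to which Txnip belongs, had a median of 0.16. Among the hypoxia genes the adenylate kinase Ak4 was at 10.16 and 10.06 and then at 8.50 and 9.44 (-1.14, SE 0.32). Trp53, whose loss defines the model together with Nf1, has no probe set with a single gene symbol here.

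Whether the rapamycin difference changed with the MEK inhibitor present was tested as an interaction. In limma 0 of 19938 genes passed, with a smallest adjusted p of 0.9999 and 434 genes at unadjusted p under 0.05, of which 206 were positive and 228 negative. The lists with the widest gap between settings were cell type markers, of adipocytes (interaction median -1.36), erythroid cells (-1.23 over 3 genes), mast cells (-0.82) and T and NK cells (0.59). Among lists described above, the interaction median was 0.07 for ribosome biogenesis, 0.07 for ATF4 targets and -0.11 for autophagy, against 0.01 over all genes. The autophagy list had a median of 0.29 with rapamycin alone and 0.13 with the MEK inhibitor present. Probe sets without a gene symbol gave no call either: of 12101, 0 passed in limma, and 244 were higher and 249 lower at unadjusted p under 0.05.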

How the data were processed

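RNA of 8 tumour samples was hybridised to Affymetrix Mouse Gene 1.0 ST arrays. Per the labels' protocols, it was extracted with Trizol, cleaned on RNeasy columns, amplified by NuGEN chemistry (Applause WT-Amp ST) and labelled with biotin. The deposited values are on a log2 scale, 1 per probe set and array; their normalization and software: not given in the sources used here. That the scale is log2 follows from their range, and the array medians lie between 7.79 and 7.90. Of 35512 probe sets, 21789 have 1 gene symbol, 1621 several and 12101 none, and 1 is empty. The Entrez ID of 21698 matched RefSeq, with 0 symbols changed. The 999 genes with more than 1 probe set were represented by the one with the highest mean, without a filter on low values.

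A model of 4 group means over the 8 arrays was fitted with limma 3.58.1 (R 4.3.3; lmFit, eBayes; two-sided), with 4 residual and 1.98 prior degrees of freedom, Benjamini-Hochberg adjustment over 19938 genes and a threshold of 0.05. It was tested on simulated data. The 53 gene lists (1130 memberships measured of 1220) are described by counts and medians, with no test. An array median is that of the members, each centred on its mean over the 4 arrays. Named genes are the 12 with the smallest p per direction (not predicted genes, arrays not overlapping, difference at least 0.5), the 8 largest differences per direction (unadjusted p under 0.05, same exclusions), up to 4 per list and 10 fixed genes, in part left out here for space. The members and lists were chosen with earlier results of these data known. Tried as alternatives were median centring, quantile normalization, a filter at the median level, a trended and robust variance prior, probe set means, a replicate block, only the groups compared, an adjusted p of 0.1 and leaving out each array. The vehicle and rapamycin array numbers deviated with a correlation of -0.278, and other pairs of groups from -0.123 to 0.183, so the numbers were not taken to pair the samples.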

Additional observations from a re-analysis of the deposited data

How the results depend on the processing

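No alternative other than leaving out an array gave a gene past the adjusted threshold in limma: median centring, quantile normalization, only genes above the median level, a trended and robust variance prior, probe set means, a replicate block, only the 2 groups compared and an adjusted p of 0.1 all gave 0. Leaving out 1 array gave 0 to 15 genes for rapamycin against vehicle and 0 to 2 for the interaction. The number at unadjusted p under 0.05 (982) was 472 with only genes above the median level, where fewer genes are tested, 636 with only the 2 groups compared, where fewer arrays set the spread, and 721 to 2268 when 1 array was left out. With the replicate block, which treats equal array numbers as paired, it was 886, and with the crossed replicate block, chosen after seeing the data, 1256, both with 0 past the adjusted threshold. The shares of genes whose arrays do not overlap stayed within 1.5 times of the main value, but their order turned with only genes above the median level, at 14.8% above and 12.9% below against 12.5% and 17.9%. The 553 higher and 429 lower genes at unadjusted p under 0.05 were 505 and 510 under quantile normalization, 457 and 462 with the trended and robust prior, 514 and 553 without vehicle array 1 and 528 each without vehicle array 2.

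Of the 114 genes followed, 100 kept their sign whichever of the 4 arrays was left out. The ranges of the other 14 were -0.40 to 0.09 for Nf1, -0.07 to 0.18 for Fkbp1a, -0.23 to 0.07 for Sox10, -1.76 to 1.56 for Nes, -0.72 to 2.74 for Pdgfra, -0.05 to 2.86 for Myh4, -0.21 to 0.06 for Trib3, -0.48 to 0.20 for Chac1, -0.19 to 0.18 for Lamp1, -0.04 to 0.34 for Mcoln1, -0.35 to 0.15 for Rptor, -0.66 to 0.22 for Ccnd1, -0.42 to 0.49 for Dusp6 and -0.14 to 0.14 for Csf1r. Csf1r was also at -0.01 under quantile normalization and median centring. Of the 53 lists, 21 kept the sign of their median whichever of the 4 arrays was left out, and 49 under quantile normalization, centring, the mean of probe sets and the replicate block. The number of arrays limits every value. The causes of these shifts were not tested.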

Other observations

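Olfactory and zinc finger genes of the stretch between Alkbh8 and Zfp317 were not the only features that followed single arrays. Without rapamycin array 1, the genes past the adjusted threshold in limma were Hoxc10 (3.36, adjusted p = 0.0463), Hoxc11 (2.19), Hecw1 (2.16) and Iqsec3 (3.03). Hoxc10 and Hoxc11 are homeobox genes of the lower body axis. With all arrays Hoxc10 had a difference of 1.69 and an unadjusted p of 0.1317. Without rapamycin array 2, the 15 genes included the adipocyte genes Adipoq (3.98), Lep (1.95), Plin4 (2.34) and Cidec (3.61), the mast cell protease Mcpt4 (2.51) and the urothelial and mesothelial genes Upk1b (2.20) and Upk3b (1.73), each higher, while Pola1, a DNA polymerase subunit, was lower (-1.69). These genes were chosen after their values were seen, and each rests on 1 rapamycin array.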
